A study of Rattus norvegicus with 29 samples.

Results

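MicroRNAs (miRNAs) in plasma were compared between injured UCLA rats that had epilepsy months later and injured UCLA rats that did not. The 6 rats were chosen by their labels alone, from 29 rats in the series: 3 had traumatic brain injury (TBI) followed by epilepsy (TBI+) and 3 had TBI without epilepsy (TBI−). The study asks whether miRNAs in plasma soon after injury separate the rats in which epilepsy develops. All were adult male Sprague-Dawley rats bled from the tail vein under isoflurane 48 h after surgery, at UEF, Monash or UCLA, and each rat gave 1 small RNA library. TBI was a lateral fluid-percussion injury, a pulse of fluid pressure on the dura through a craniotomy, and sham-operated experimental controls had the surgery without the pulse. Epilepsy was scored from 4 weeks of continuous video-EEG in the 7th month, so none of the plasma came from a rat already scored as epileptic. UCLA also gave 3 sham-operated rats, UEF gave 4 sham, 4 TBI− and 4 TBI+ rats, and Monash gave 3 sham, 3 TBI− and 2 TBI+ rats. At UCLA the exact hour of sampling was not recorded. The sites had rats from different vendors. The analgesic was flunixin at UCLA and buprenorphine at UEF and Monash, and antibiotic chow was given after surgery at UCLA only. Levels are given in CPM, a miRNA's count scaled to the size of its library after TMM normalisation, which sets libraries equal over the bulk of their miRNAs, and fold changes are TBI+ minus TBI− on the log2 scale. A miRNA was called when its adjusted p in the edgeR test was under 0.05.

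A miRNA is cut from a hairpin, and either the 5p or the 3p arm of the hairpin can become the mature strand of about 22 bases that represses messenger RNAs. Pairing is led by the seed, bases 2 to 8, so miRNAs with the same seed share many predicted targets. Plasma miRNAs come largely from blood cells, with smaller shares from liver, vessel, muscle and other tissues, and brain-enriched miRNAs such as miR-124 and miR-9 are sought in plasma as signs of brain damage. In bulk plasma, release from more cells and more miRNA per cell cannot be told apart.

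The sequences below are those of the called miRNAs with the lowest p in each direction, with the seed in capitals, shown because the results below turn on them. They are RefSeq mature sequences with their positions in the GRCr8 assembly. RefSeq held 674 of the 754 names in the table, and miR-6318, which also belonged to the 10 lowest p among lower miRNAs, was not among them. The first 9 were lower in TBI+ rats and the last 7 were higher.
miR-673-3p (chr6:134306550-134306571, + strand): uCCGGGACugaguucugugcac
miR-708-3p (chr1:160011214-160011235, + strand): cAACUAGAcugugagcuucuag
miR-337-3p (chr6:134321201-134321223, + strand): uUCAGCUCcuauaugaugccuuu
miR-667-3p (chr6:134555392-134555413, + strand): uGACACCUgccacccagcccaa
miR-1193-3p (chr6:134550509-134550530, + strand): uAGGUCACccguuuuacuaucc
miR-466c-5p (chr17:72927649-72927669, − strand): uGUGAUGUguguauguacaug
miR-137-3p (chr2:209165767-209165789, + strand): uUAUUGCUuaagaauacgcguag
miR-6326 (chr10:60805141-60805163, + strand): cUGGUCUGuaaagggacacagca
miR-297 (chr10:98715721-98715743, − strand): aUGUAUGUgugcauguaugcaug
miR-433-5p (chr6:134327369-134327390, + strand): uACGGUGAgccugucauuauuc
miR-134-3p (chr6:134570359-134570380, + strand): cUGUGGGCcaccuagucaccaa
miR-340-5p (chr10:34894668-34894689, + strand): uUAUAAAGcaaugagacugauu
miR-142-5p (chr10:73055119-73055139, + strand): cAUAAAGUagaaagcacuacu
miR-101a-3p (chr5:121081691-121081711, − strand): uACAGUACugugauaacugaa
miR-21-5p (chr10:71902653-71902674, − strand): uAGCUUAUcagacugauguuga
miR-144-5p (chr10:63459409-63459431, + strand): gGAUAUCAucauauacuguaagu

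No 2 of these 16 miRNAs shared a seed. Among all called miRNAs with a sequence, miR-1193-3p and miR-370-5p shared the seed AGGUCAC, and both were lower in TBI+ rats (log2 fold changes −3.09 and −1.65). The seed of miR-101a-3p, ACAGUAC, was shared with miR-101b-3p, whose change of 1.32 was not called (adjusted p = 0.138). These 2 are close in sequence, so reads may be split between them in the counting. The hairpin of miR-673 shows how a called arm sits in its precursor (chr6:134306500-134306582, + strand, 83 bases), with the 3p arm in capitals.
Mir673 hairpin: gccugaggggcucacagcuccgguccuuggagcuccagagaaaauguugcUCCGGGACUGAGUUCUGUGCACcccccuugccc

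Total miRNA counts were 2198033 to 3976506 in the TBI+ rats and 2163966 to 2903673 in the TBI− rats, and 1162307 to 5223469 over all 29 rats. The libraries fell into 2 sets that the labels do not name. miR-673-3p was at 4.70 to 9.52 CPM in 9 libraries and at 35.6 to 87.8 CPM in the other 20, and the 9 were all 3 UCLA TBI+ rats, all 3 Monash sham rats and all 3 Monash TBI− rats. They stood next to each other, at positions 15 to 23, in the column order of the deposited table. No UCLA TBI− or sham rat and no UEF rat was among them. Of the 754 miRNAs, 21 were lower in every one of the 9 libraries than in every one of the 20, and 0 were higher in this way. At UCLA, later epilepsy and this set of libraries cannot be told apart, and the comparison cannot be made without the set because it holds every UCLA TBI+ rat. The set was noticed after the values were seen. Over miRNAs, the UCLA TBI+ libraries had a median Spearman correlation of 0.934 with the 6 Monash libraries of the set (18 pairs), 0.895 with the UCLA TBI− libraries (9 pairs) and 0.868 with the 2 Monash TBI+ libraries (6 pairs).

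Later epilepsy at UCLA went with lower levels of many low-abundance miRNAs. Of 754 miRNAs tested, 43 were lower in TBI+ rats (5.7%) and 7 were higher (0.928%), 50 in all (6.63%). The lower miRNAs had a median log2 fold change of −1.88, and the higher ones 1.46. The median over all 754 was 0.03. In 38 of the 43 lower miRNAs the mean over the 6 rats was under 100 CPM, and only miR-21-5p among the called miRNAs exceeded 1000 CPM. The 3 TBI+ and the 3 TBI− rats did not overlap for any of the 50, against 147 lower (19.5%) and 98 higher (13%) of all 754 that did not overlap. Leaving out 1 rat at a time gave 23 to 42 calls: 23 without TBI− rat 3, 23 without TBI+ rat 1 and 29 without TBI+ rat 2. Of the 50 miRNAs, 16 were called in every one of these 6 fits, 15 lower and 1 higher (miR-433-5p). Scaling by total counts alone left 17 calls and scaling to miR-28-3p, the reference miRNA of the study, left 14, in each case with 1 higher.

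**Figure D1:**
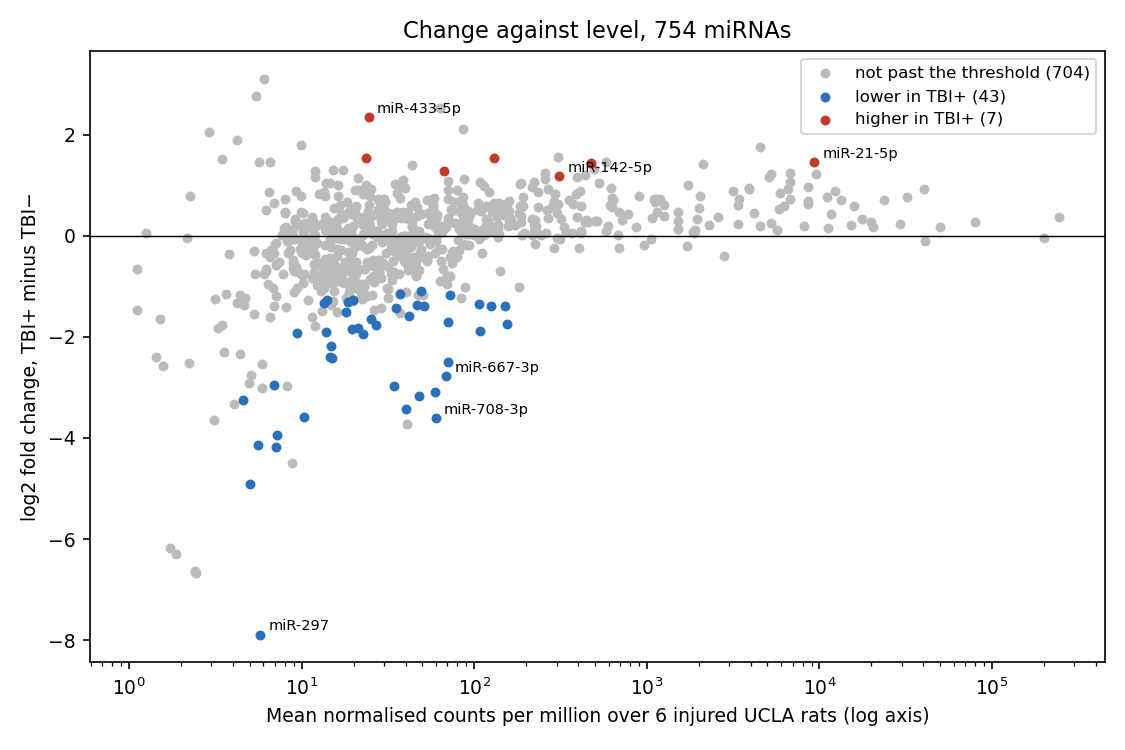
Log2 fold change of TBI+ minus TBI− rats at UCLA (vertical axis) against the mean CPM of the 6 injured rats (horizontal log axis) for the 754 miRNAs, 1 point each. Blue points are the 43 called lower, red the 7 called higher and grey the 704 not called; the lower calls lie mostly under 100 CPM, and miR-21-5p lies furthest right among the calls.

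Several of the largest differences were in miRNAs of the imprinted Dlk1-Dio3 region, a maternally expressed miRNA cluster active in brain and embryo. miR-673-3p had 6.66, 4.70 and 9.00 CPM in the 3 TBI+ rats, 70.1, 63.5 and 87.8 in the 3 TBI− rats and 74.3, 53.7 and 35.8 in the 3 sham-operated rats. Every TBI+ rat lay below every other UCLA rat, with a log2 fold change of −3.43 ± 0.35 (SE), adjusted p = 1.43e-07. For miR-337-3p the levels were 8.06, 10.8 and 9.86 CPM in the 3 TBI+ rats, 85.7, 64.3 and 110.3 in the 3 TBI− rats and 65.3, 67.5 and 36.1 in the 3 sham-operated rats (log2 fold change −3.18 ± 0.36 (SE), adjusted p = 3.34e-07). miR-1193-3p, from the same cluster, stood at 7.71, 12.7 and 17.1 CPM in the 3 TBI+ rats, 88.2, 76.9 and 155 in the 3 TBI− rats and 72.2, 87.5 and 59.97 in the 3 sham-operated rats (log2 fold change −3.09 ± 0.43 (SE), adjusted p = 1.17e-05). The TBI+ rats were again the low ones, while the TBI− and sham rats overlapped. miR-667-3p, also of this cluster, measured 18.6, 23.03 and 11.1 CPM in the 3 TBI+ rats, 125, 119.7 and 117 in the 3 TBI− rats and 90.3, 87.04 and 209.9 in the 3 sham-operated rats (log2 fold change −2.78 ± 0.37 (SE), adjusted p = 5.53e-06).

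Outside the cluster, miR-708-3p, of chromosome 1, had 5.96, 14.1 and 7.28 CPM in the 3 TBI+ rats, 103, 99.3 and 129.6 in the 3 TBI− rats and 78.2, 98.9 and 40.9 in the 3 sham-operated rats. The highest TBI+ rat was below the lowest of the other 6 rats (log2 fold change −3.61 ± 0.39 (SE), adjusted p = 1.79e-07). miR-137-3p, a neuron-enriched miRNA that restrains synaptic and neurogenic genes, had 44.2, 57.8 and 36 CPM in the 3 TBI+ rats, 152, 171 and 186 in the 3 TBI− rats and 114, 166 and 96.7 in the 3 sham-operated rats. TBI+ rats were below both other groups, which overlapped (log2 fold change −1.88 ± 0.35 (SE), adjusted p = 0.00107). The call of miR-137-3p held without any 1 rat and was lost under scaling to miR-28-3p, a reference miRNA (adjusted p = 0.0605).

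For miR-466c-5p, a member of a family of near-identical copies among which reads may be split, the values were 4.91, 5.64 and 3.43 CPM in the 3 TBI+ rats, 20.9, 26.9 and 26 in the 3 TBI− rats and 13.8, 9.04 and 9.67 in the 3 sham-operated rats (log2 fold change −2.39 ± 0.36 (SE), adjusted p = 5.42e-05). Here the sham rats lay between the TBI+ and the TBI− rats. miR-6318 had 15.4, 24.4 and 24 CPM in the 3 TBI+ rats, 93.1, 126 and 139 in the 3 TBI− rats and 91.6, 133 and 53.2 in the 3 sham-operated rats (log2 fold change −2.49 ± 0.45 (SE), adjusted p = 0.000609), and miR-6326 had 4.56, 5.64 and 3.86 CPM in the 3 TBI+ rats, 19.3, 23.2 and 33.1 in the 3 TBI− rats and 28.1, 23.3 and 19.02 in the 3 sham-operated rats (log2 fold change −2.42 ± 0.46 (SE), adjusted p = 0.00111). For both, TBI+ rats were lower than all 6 other UCLA rats. miR-297 had 0 counts in each TBI+ rat and 86 counts over the 3 TBI− rats (5.74, 10.2 and 18.5 CPM). Against a floor of 3 counts over the TBI+ group it was 28.2-fold lower (adjusted p = 0.00111). The lower end of the 95% interval of the ratio, for counting error only, was 22.45. miR-759 had 2 counts over the TBI+ rats and 73 over the TBI− rats, a ratio of 35.9 with a 95% interval of 9.59 to 302 that covers counting error only. Like it, miR-452-3p, miR-463-5p, miR-465-3p, miR-344b-3p, miR-9b-5p and the joint entry for miR-3084b-5p and miR-3084c-5p had 0 counts in TBI+ rats 1 and 2 and some in rat 3, and each reached at most 24.7 CPM in any UCLA rat. miR-759 and these 6 entries were named after their values were seen, and no fold is given for the 6.

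**Figure D2:**
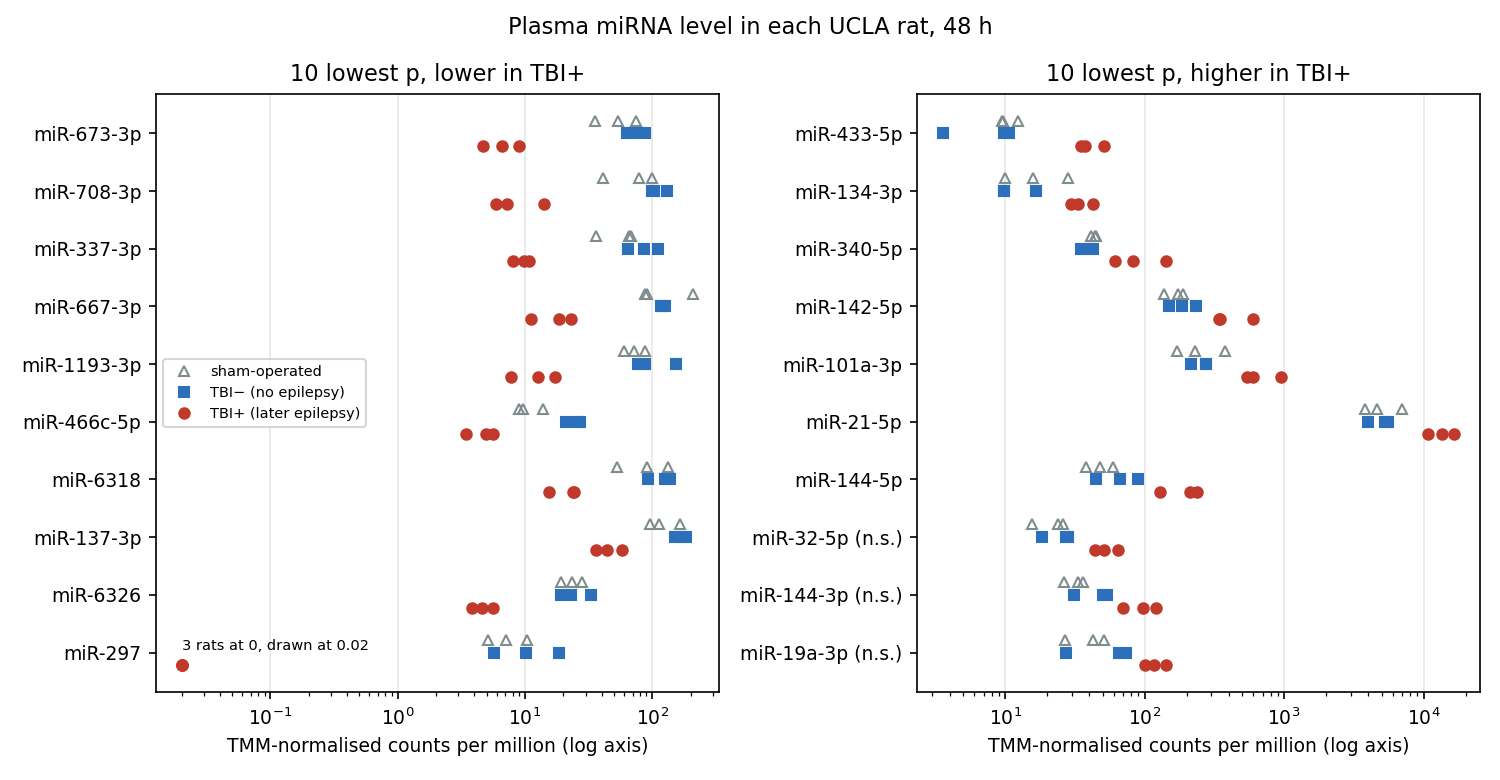
CPM (log axis) in each UCLA rat for the 10 lowest p among miRNAs lower in TBI+ rats (left) and among those higher (right), with red circles for TBI+, blue squares for TBI− and open grey triangles for sham rats. Red circles lie apart from blue squares in every row; n.s. marks 3 miRNAs that were not called, and the 3 TBI+ rats at 0 for miR-297 are drawn at 0.02 CPM.

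The 7 higher miRNAs included miRNAs known from blood cells and tissue injury. miR-21-5p, which rises in many injured and inflamed tissues, had 16577, 13628 and 10822 CPM in the 3 TBI+ rats, 5329, 5548 and 4017 in the 3 TBI− rats and 4638, 3770.4 and 6973 in the 3 sham-operated rats. All 3 TBI+ rats were above all 6 other UCLA rats (log2 fold change 1.46 ± 0.44 (SE), adjusted p = 0.0443). miR-142-5p, made almost solely in blood-forming cells, had 602, 340.3 and 345 CPM in the 3 TBI+ rats, 186, 233 and 150.1 in the 3 TBI− rats and 189, 137 and 174 in the 3 sham-operated rats (log2 fold change 1.18 ± 0.32 (SE), adjusted p = 0.0233). Its TBI+ rats did not overlap either of the other groups. miR-144-5p, of the erythroid cluster that also holds miR-451, had 210.2, 129.7 and 239 CPM in the 3 TBI+ rats, 88.98, 65.9 and 44.5 in the 3 TBI− rats and 47.5, 38.1 and 59.7 in the 3 sham-operated rats (log2 fold change 1.54 ± 0.47 (SE), adjusted p = 0.0444). The call of miR-21-5p was lost without any 1 rat other than TBI+ rat 3, that of miR-142-5p without TBI− rat 1, TBI− rat 3 or TBI+ rat 1, and that of miR-144-5p without TBI− rat 2 or 3 or TBI+ rat 1 or 3. Over all settings the adjusted p reached 0.195, 0.362 and 0.227.

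miR-433-5p and miR-134-3p came from the Dlk1-Dio3 cluster, in whose stretch of chromosome 6 also lay 9 of the 43 lower miRNAs, and were higher in TBI+ rats. miR-433-5p had 37.1, 50.8 and 35.1 CPM in the 3 TBI+ rats, 9.84, 10.6 and 3.54 in the 3 TBI− rats and 9.51, 12.4 and 9.67 in the 3 sham-operated rats (log2 fold change 2.35 ± 0.50 (SE), adjusted p = 0.00312). miR-134-3p stood at 29.4, 42.3 and 33.4 CPM in the 3 TBI+ rats, 9.84, 9.77 and 16.5 in the 3 TBI− rats and 9.94, 28.1 and 15.8 in the 3 sham-operated rats (log2 fold change 1.53 ± 0.36 (SE), adjusted p = 0.00688). For both, every TBI+ rat was above every other UCLA rat. miR-340-5p had 141, 61.6 and 81.8 CPM in the 3 TBI+ rats, 39.4, 35 and 42.5 in the 3 TBI− rats and 41.1, 44.7 and 44.2 in the 3 sham-operated rats (log2 fold change 1.28 ± 0.32 (SE), adjusted p = 0.0123), and miR-101a-3p had 944, 544 and 601 CPM in the 3 TBI+ rats, 273, 277 and 215 in the 3 TBI− rats and 228, 171 and 374 in the 3 sham-operated rats (log2 fold change 1.45 ± 0.43 (SE), adjusted p = 0.0371). TBI+ rat 1 was the highest of the 9 for both. The call of miR-433-5p held without any 1 rat, and that of miR-134-3p was lost without TBI− rat 1. That of miR-340-5p was lost without TBI− rat 1 or 2 or TBI+ rat 1 (adjusted p up to 0.361 over all settings), and that of miR-101a-3p without any 1 rat other than TBI+ rat 3 (up to 0.173). The next 3 by p, miR-32-5p (1.11, adjusted p = 0.0588), miR-144-3p (1.09, 0.0758) and miR-19a-3p (1.11, 0.0887), were not called. Under scaling by total counts or to miR-28-3p, only miR-21-5p of the 7 stayed called, and these settings put the median of all miRNAs at −0.31 and −0.24.

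In most hairpins with a called miRNA, only 1 of the arms was called. The difference between arms was not tested. Of 275 hairpins with both arms in the table, 31 had 1 arm called and 1 had both, miR-452. Only 6.63% of all 754 miRNAs were called, so few called partner arms would be seen at that share alone. The called arm was the rarer of the pair in 13 of the 31 (41.9%). Among the 24 hairpins with a lower arm, the other arm had a positive log2 fold change in 14 and a median of 0.09. Over all 754 miRNAs 52.4% were positive, with a median of 0.03. For miR-673 the 5p arm was 25.6, 20.7 and 23.6 CPM in TBI+ and 15.2, 15.5 and 22.1 in TBI− rats (0.41 on the log2 scale, adjusted p = 0.574), where its 3p arm had −3.43. The 5p arm of miR-708 was 26.98, 30.5 and 19.7 CPM in TBI+ and 18.5, 24.01 and 17.3 in TBI− rats (0.37, adjusted p = 0.663). The partner arms had overlapping rats for miR-337-5p (−0.21), miR-1193-5p (−0.21) and miR-466c-3p (0.22), none of them called. Among higher miRNAs, miR-21-3p (0.47), miR-142-3p (0.77), miR-433-3p (0.51), miR-134-5p (0.21) and miR-101a-5p (0.30) were not called. miR-340-3p had −0.74, a sign opposite to that of its called 5p arm, and was not called (adjusted p = 0.355). miR-667-5p (−0.94, adjusted p = 0.19) and miR-137-5p (−1.06, 0.116) had the sign of their called 3p arms. miR-32-3p and miR-19a-5p were at 0 in 2 of the 3 TBI− rats, miR-19a-5p also in 2 of the 3 TBI+ rats, and neither was called.

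**Figure D3:**
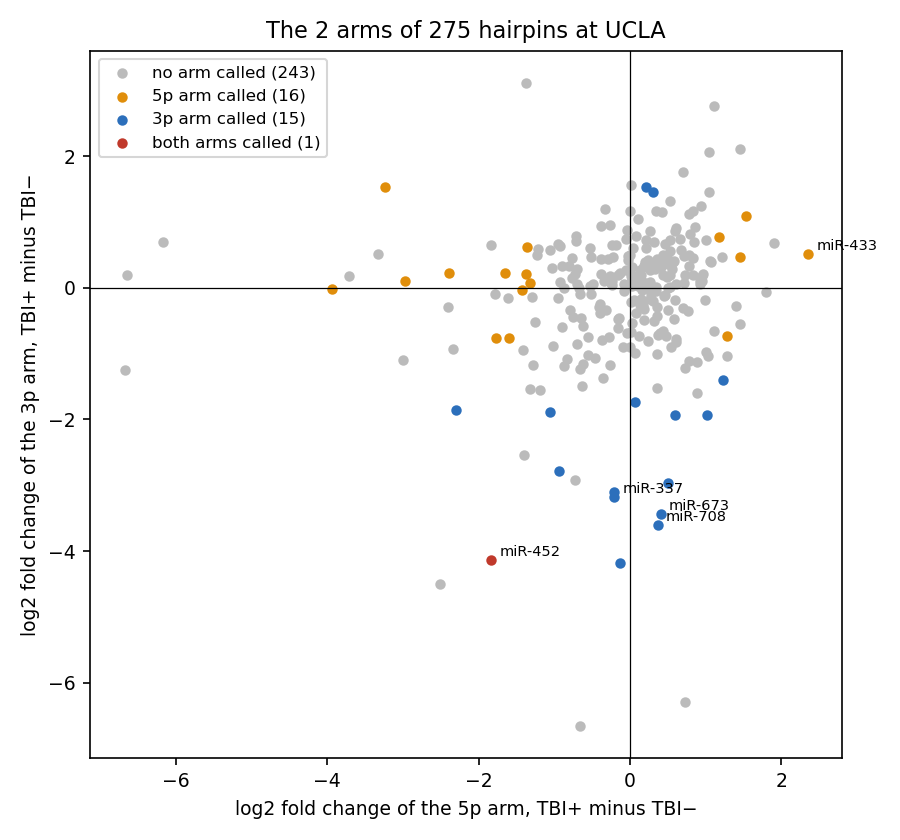
Log2 fold change (TBI+ minus TBI− at UCLA) of the 3p arm against that of the 5p arm for 275 hairpins, coloured by which arm was called. Blue points (3p arm called, 15 hairpins) lie away from 0 on the 3p axis and orange points (5p arm called, 16 hairpins) on the 5p axis, and the partners of the 24 arms called lower have a median of 0.09.

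By position, 98 of the miRNAs with a RefSeq sequence lay between the outermost listed hairpins of the Dlk1-Dio3 region (chr6:134298094-134579828 in GRCr8). Of these, 9 were lower and 2 were higher in TBI+ rats (11.2%, beside 6.63% of all 754), and their median log2 fold change was −0.31. The 9 were miR-673-3p, miR-337-3p, miR-667-3p, miR-1193-3p, miR-370-5p, miR-496-3p, miR-540-5p, miR-665 and miR-3578. miR-3578 lies on the strand opposite to the others. This stretch was counted after the values were seen. In the list of 79 cluster members by name, 4 were lower and 2 higher (7.59%), with a median of −0.21. The summed level of the list was 2969 to 3414 CPM in TBI+ rats and 2679.7 to 3232 CPM in TBI− rats, so the groups overlapped.

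Brain and neuron miRNAs numbered 26, of which 3 were lower in TBI+ rats and 0 higher (11.5%, beside 6.63% of all). The median was −0.17. The 3 were miR-137-3p, miR-212-5p (log2 fold change −1.77 ± 0.52 (SE), adjusted p = 0.035) and miR-9b-5p, at 0 in 2 TBI+ rats. miR-212 is induced by neuronal activity from a hairpin next to miR-132. miR-128-3p, the member with the highest level, had 15329.5, 11954 and 12686 CPM in the 3 TBI+ rats, 14405, 10457 and 4724 in the 3 TBI− rats and 6058, 4021 and 6863 in the 3 sham-operated rats and was not called (log2 fold change 0.43, adjusted p = 0.588). The summed list was 12840.4 to 16103 CPM in TBI+ rats, 5751 to 15363 in TBI− rats and 4941 to 7825 in sham rats.

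The study followed 7 candidate miRNAs, and none was called at UCLA. miR-9a-3p, a neural miRNA, came closest, with 44.2, 56.4 and 49.3 CPM in the 3 TBI+ rats, 118, 117 and 115 in the 3 TBI− rats and 61.4, 76.1 and 73.8 in the 3 sham-operated rats. The TBI+ rats were all below the TBI− rats and below the sham rats too (log2 fold change −1.22 ± 0.39 (SE), adjusted p = 0.0588). It was called under 8 of 19 alternative settings. miR-132-3p, the partner in the cluster with miR-212, had 54.3, 50.3 and 62.6 CPM in the 3 TBI+ rats, 31.6, 40.3 and 40.96 in the 3 TBI− rats and 28.5, 26.2 and 57.7 in the 3 sham-operated rats (log2 fold change 0.57, adjusted p = 0.351). Its TBI+ rats were above the TBI− rats and overlapped the sham rats. For miR-124-3p, the most brain-specific of the 7, the values were 30.1, 39.5 and 39.4 CPM in the 3 TBI+ rats, 41.4, 40.3 and 41.8 in the 3 TBI− rats and 28.96, 34.7 and 24.8 in the 3 sham-operated rats (−0.18, adjusted p = 0.812). The others were miR-183-5p (0.47), miR-323-3p (0.28), miR-434-3p (0.27) and miR-212-3p (−0.76), each with overlapping rats and adjusted p of 0.302 to 0.781. miR-28-3p had 618, 478 and 603 CPM in the 3 TBI+ rats, 501, 468 and 412 in the 3 TBI− rats and 429, 375 and 389.8 in the 3 sham-operated rats (0.30, adjusted p = 0.723). The TBI+ and TBI− rats overlapped.

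Of 7 red blood cell miRNAs, 1 was higher (miR-144-5p) and 0 lower (14.3% called, beside 6.63% of all 754), with a median of 0.36. Their summed level was 365281 to 569052 CPM in TBI+ rats and 364150.2 to 514136 in TBI− rats. The log2 ratio of miR-451 to miR-23a-3p, a measure of red cell lysis in which miR-451 is the erythroid member, was −1.92 ± 0.39 (SD, n = 3) in TBI+ and −1.77 ± 0.67 (SD, n = 3) in TBI− rats (two-sided exact permutation p = 1, adjusted over 5 measures 1, smallest possible 0.1). The 2 abundant red cell miRNAs, miR-16-5p (0.38) and miR-486 (−0.04), were not called (adjusted p = 0.665 and 0.976). Of 6 white cell and platelet miRNAs, miR-142-5p was higher and 0 were lower (16.7% called, beside 6.63% of all 754). The other 5 had log2 fold changes of 0.09 to 0.92. The summed level was 99128 to 161492 CPM in TBI+ rats, all above the 81969 to 85581 CPM of TBI− rats, where 13% of all single miRNAs were higher without overlap. A fit with the log2 ratio of miR-451 to miR-23a-3p as a covariate called 52 miRNAs, 43 lower and 9 higher. Of these, 48 were among the 50 of the main fit. Beyond this fit, the part of blood cell miRNAs in the other differences was not tested.

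Among 8 inflammation miRNAs 2 were called (25%, beside 6.63% of all 754). miR-21-5p was higher and miR-146b-3p was lower (log2 fold change −1.93 ± 0.51 (SE), adjusted p = 0.019). miR-146a-5p, a brake on inflammatory signalling and the most abundant of the list, had 19809.9, 10908 and 17229.6 CPM in the 3 TBI+ rats, 9644, 10511 and 5869 in the 3 TBI− rats and 8979, 6765 and 9382 in the 3 sham-operated rats (0.88, adjusted p = 0.183). The list summed to 27401 to 41570.2 CPM in TBI+ rats and 11296 to 18059 in TBI− rats, and to 24556 to 38404 in the 6 Monash libraries of the set. In 3 other lists 1 member each was called, in each case lower. These were miR-216a-5p of 8 pancreas miRNAs (12.5%, beside 6.63% of all 754), miR-23a-5p of 11 miRNAs of the miR-23, miR-24 and miR-27 group (9.09%), and miR-30c-1-3p of 11 of the miR-30 family (9.09%). The calls of these 3 and of miR-146b-3p were each lost without TBI− rat 3 and without TBI+ rat 3 (adjusted p up to 0.166 over all settings). No member was called among 15 muscle and heart, 8 liver, 7 vessel, 6 oligodendrocyte, 5 sensory cluster, 4 choroid plexus and 4 cartilage miRNAs. The same held for 19 of the miR-17 to miR-92a cluster, 18 let-7, 11 miR-503 cluster, 9 miR-200 and 7 miR-29 miRNAs. The medians of these uncalled lists ranged from −0.71 (muscle and heart) to 0.93 (vessel). For the vessel list, miR-126a-3p, an endothelial miRNA, had 11569.9, 5217 and 11502 CPM in the 3 TBI+ rats, 3756, 5658 and 2594 in the 3 TBI− rats and 11769, 7694 and 11455 in the 3 sham-operated rats (1.24, adjusted p = 0.208), and the TBI+ and TBI− rats overlapped. miR-208b-3p, a cardiac muscle miRNA, was at −1.17 with an adjusted p of 0.0526.

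**Figure D4:**
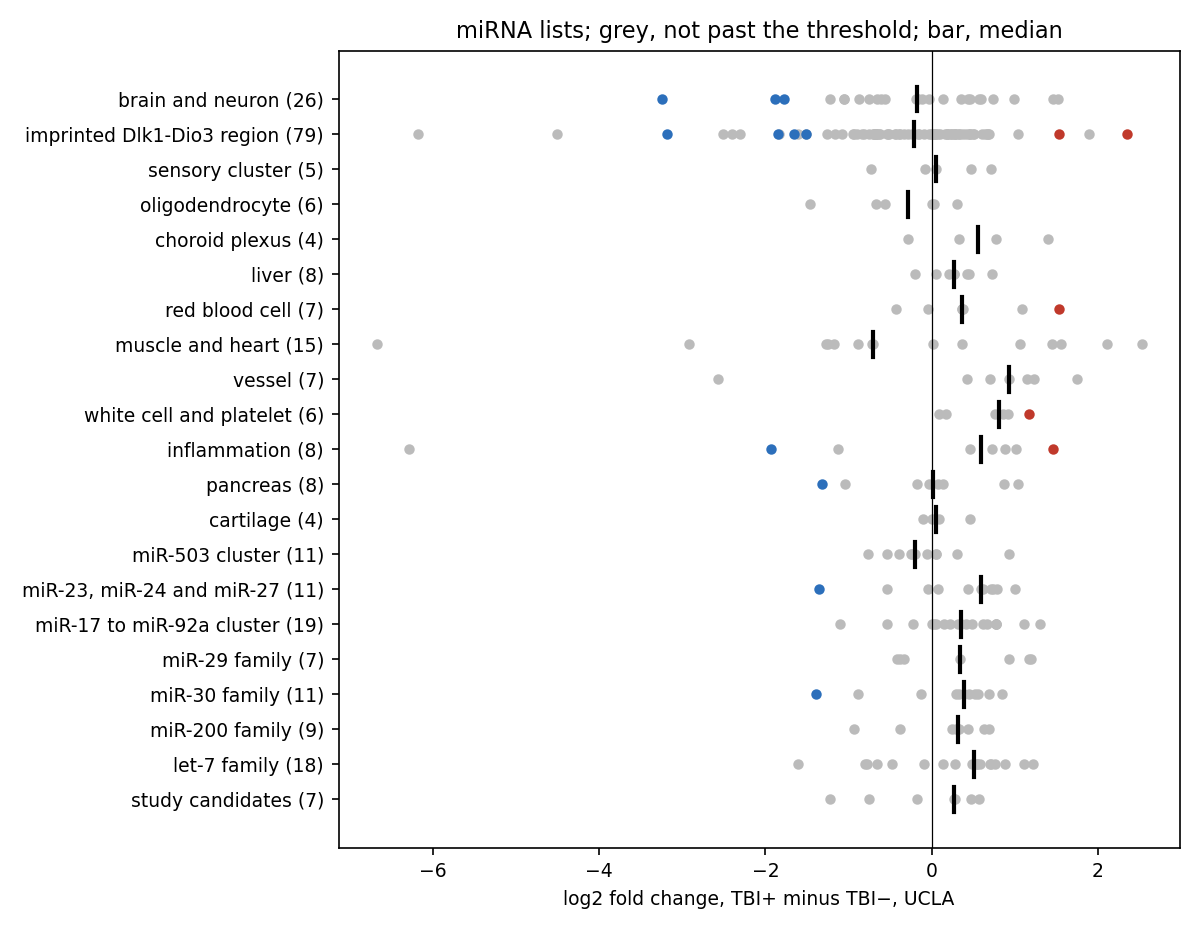
Log2 fold change (TBI+ minus TBI− at UCLA) of each member of 21 miRNA lists, with the number of members in brackets; black bars are medians, blue and red points were called lower and higher, and grey points were not called. Called members are spread over 8 lists, at most 6 in one list.

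Fewer miRNAs reached 10 counts in TBI+ rats. The 3 TBI+ rats had 688 to 704 such miRNAs (698 ± 8.50, SD) and the 3 TBI− rats 726 to 733 (731 ± 4.04), a difference of −33 that was the most extreme of the 20 splits (two-sided exact permutation p = 0.1, the smallest possible with 3 against 3, adjusted 0.25). The groups did not overlap. Total counts were not lower: 3140861 ± 894068 (SD) in TBI+ and 2459189 ± 391792 in TBI− rats (exact permutation p = 0.3, adjusted 0.375). Thinned to an equal total of 1162307, the difference was −86 (exact p = 0.1). Outside UCLA, the Monash sham and TBI− libraries of the set had 662 to 707 and 701 to 722 such miRNAs, and the 2 Monash TBI+ libraries had 710 and 735. The 3 most abundant miRNAs, miR-16-5p, miR-486 and miR-191a-5p, held 43.9% ± 2.18 (SD) of counts in TBI+ rats and 48.8% ± 1.96 in TBI− rats (exact p = 0.1, adjusted 0.25). The TMM factors, which scale each library, were 0.801 ± 0.144 (SD) and 1.03 ± 0.170 (exact p = 0.2, adjusted 0.333).

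The other 2 sites have rats of their own, so their TBI+ against TBI− values stand apart from those of UCLA. Of the 43 miRNAs lower at UCLA, 42 had a positive log2 fold change at Monash, 23 of them past the threshold, where 62 of 754 were called (8.22%), 50 higher (6.63%) and 12 lower (1.59%). At Monash the TBI− rats, not the TBI+ rats, belong to the low set of libraries. At UEF, where no library belongs to it, 23 of the 43 had a positive and 20 a negative log2 fold change (median 0.01, from −0.41 to 0.65). Over all 754 miRNAs, 47.1% were positive and 52.8% negative at Monash, and 42.8% were positive and 56.9% negative at UEF. UEF had 0 of 754 miRNAs called by edgeR and 17 with an unadjusted p under 0.05 (2.25%). The 7 miRNAs higher at UCLA all had a negative log2 fold change at Monash, 3 past the threshold, and 3 of the 7 had positive values at UEF.

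For miR-673-3p the log2 fold change was −3.43 at UCLA, 2.52 (adjusted p = 3.92e-05) at Monash and 0.06 (adjusted p = 0.999) at UEF. In CPM, TBI− and TBI+ rats had 7.70 to 9.52 and 41.05 to 55.3 at Monash and 39.6 to 64.2 and 38.4 to 67.4 at UEF. The UCLA TBI+ range thus lay beside that of the Monash TBI− rats. The levels of miR-708-3p were 9.15 to 14.5 in Monash TBI− and 70.7 to 127 in Monash TBI+ rats, and 65.5 to 111 and 73.8 to 107 at UEF. For miR-337-3p they were 6.47 to 8.30 and 63.9 to 68.7 at Monash and 41.9 to 73.8 and 44.4 to 85.9 at UEF. miR-21-5p, higher in TBI+ rats at UCLA, was at 15609 to 16494 CPM in Monash TBI− and 6758 to 7181 in Monash TBI+ rats, with 5206 to 13389 and 5642 to 11959 at UEF. Its log2 fold change was −1.20 (adjusted p = 0.153) at Monash and 0.04 (adjusted p = 0.999) at UEF. Among the 21 miRNAs that separated the 9 libraries from the other 20, 17 were among the 43 called lower at UCLA. This overlap is largely built in, since such a miRNA must be lower in every UCLA TBI+ rat than in every UCLA TBI− rat.

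**Figure D5:**
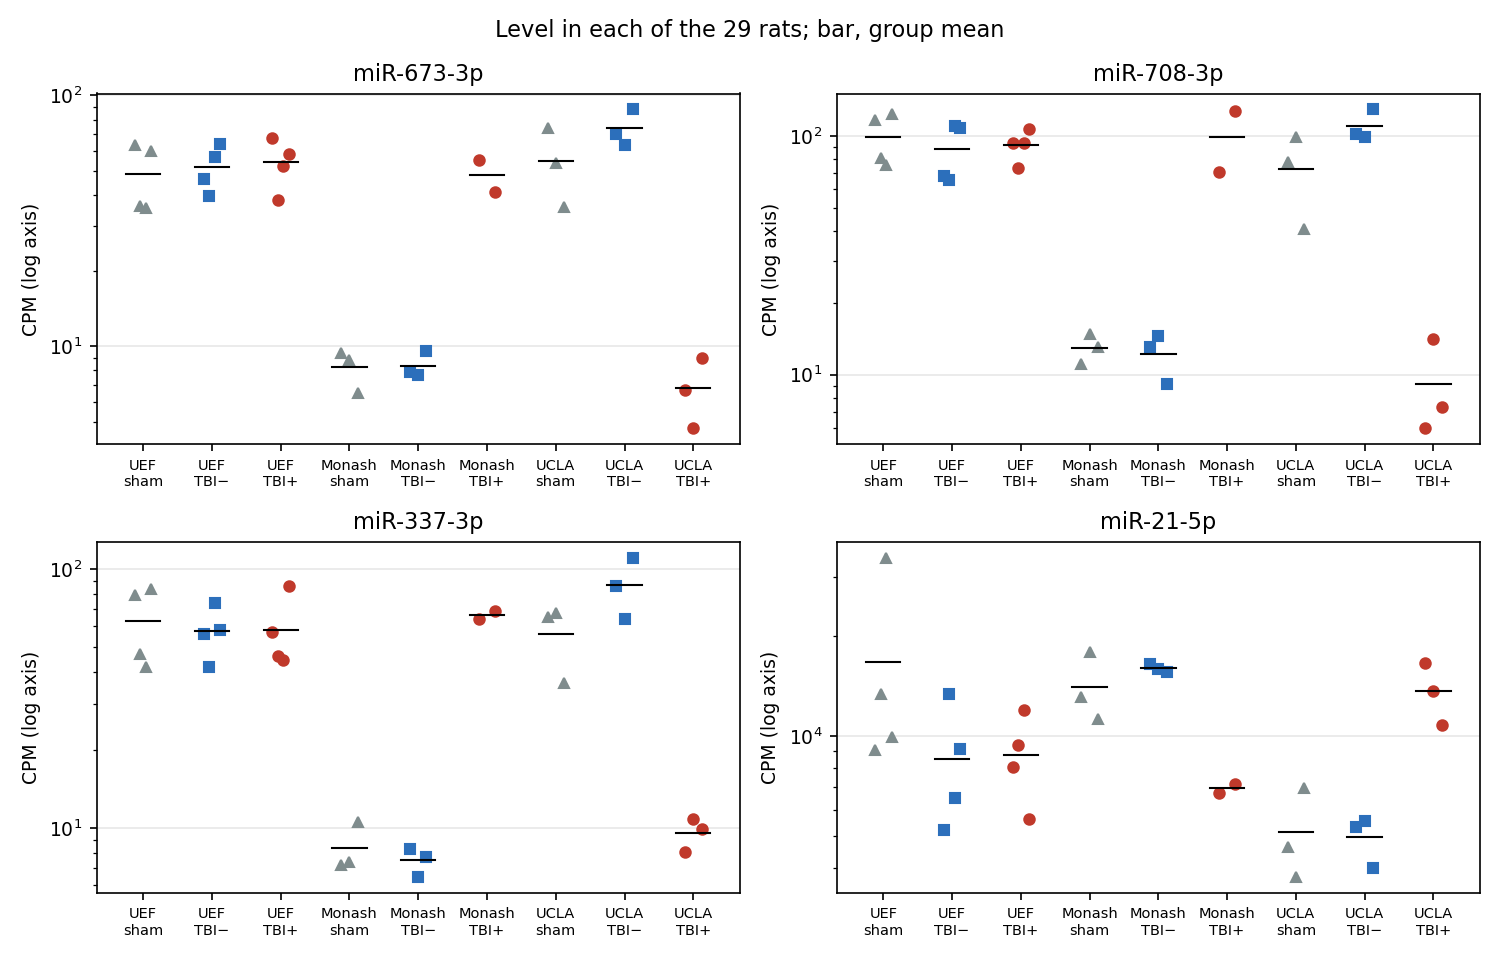
CPM (log axis) of miR-673-3p, miR-708-3p, miR-337-3p and miR-21-5p in each of the 29 rats by site and group, with black bars for group means. UCLA TBI+ rats lie at the level of Monash sham and TBI− rats for the first 3 miRNAs, and the TBI+ and TBI− rats of UEF overlap in all 4 panels.

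The difference between sites was tested directly. It cannot be told apart from the set of 9 libraries or from the differences in vendor and treatment between sites. The TBI+ effect at UCLA was lower than that at UEF for 17 miRNAs (2.25%) and higher for 3 (0.398%), 20 of 754 in all (2.65%). Against Monash it was lower for 83 (11%) and higher for 34 (4.51%), 117 in all (15.5%). Scaling by total counts alone gave 8 lower and 0 higher against UEF and 79 and 10 against Monash, scaling to miR-28-3p gave 8 and 0 and then 72 and 9, and upper-quartile scaling gave 101 and 21 against Monash. miR-673-3p, miR-708-3p and miR-337-3p had the lowest p in both tests. Against UEF their differences were −3.49 ± 0.44 (SE), −3.67 ± 0.48 and −3.19 ± 0.45, with adjusted p of 7.72e-06, 8.16e-06 and 2.15e-05. Without TBI+ rat 1 the count against UEF fell to 8, and without TBI− rat 3 to 13. Without TBI− rat 3 the count against Monash was 75. With terms for site and outcome over all 29 rats, a model added after the values were seen that estimates 1 outcome effect for all sites, 0 of 754 miRNAs were called by edgeR (17 with an unadjusted p under 0.05). A further term for the set of 9 libraries also gave 0 (27 with an unadjusted p under 0.05). The set was told apart by miR-673-3p, so this term takes up the difference of miR-673-3p, and of miRNAs that move with it, by construction.

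Against sham, 80 miRNAs were called in TBI+ rats (10.6%), 55 lower (7.29%) and 25 higher (3.32%). In TBI− rats 2 were called (0.265%), 1 in each direction (0.133%), and 48 had an unadjusted p under 0.05 (6.37%). Both comparisons use the same sham rats. The set of 9 libraries holds every UCLA TBI+ rat and no UCLA sham or TBI− rat. The larger number of calls in TBI+ rats therefore cannot be told apart from the set. The 2 were miR-301a-5p, higher and at 0 in every sham rat, and miR-347, lower, with 15.6, 21.9 and 419 CPM in the sham rats where sham rat 3 stood far above the others, and the comparison was not refitted without it. Neither miR-301a-5p (−0.52, adjusted p = 0.781) nor miR-347 (−0.80, 0.534) was called between the outcomes.

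The sequences of the called miRNAs are described here without a test. The 35 lower miRNAs with a sequence had a median GC content of 47.6% and a median length of 22 bases, beside 47.8% and 22 bases for all 674. The last base was G in 31.4% of the 35 and 21.7% of all, and the first base was U in 28.6% and 36.1%. The 7 higher miRNAs had a median GC content of 33.3% (27.3 to 59.1%). miR-144-5p, miR-340-5p, miR-101a-3p and miR-142-5p are examples of U- and A-rich sequences among those printed above, while miR-134-3p is GC-rich. Of 138 miRNAs with at most 40% GC, 7 were lower and 5 higher, and of 100 miRNAs over 60% GC, 2 were lower and 0 higher. Between them, 15 were lower and 1 higher of 287 at 40 to 50% GC, and 11 and 1 of 149 at 50 to 60%. Over all 674 miRNAs with a sequence, 35 were lower and 7 higher. From the lowest band to the highest, the medians of the log2 fold change were 0.08, 0.10, −0.05 and 0.01. By arm, 16 of the 43 lower miRNAs were 3p (37.2%) and 15 were 5p (34.9%), against 41.2% and 40.6% of all 754, the rest having no arm in the name.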

How the data were processed

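Plasma small RNA of 29 rats was sequenced from QIAseq miRNA libraries as single-end reads on a NextSeq 550. The deposited table holds raw counts for 754 miRNA entries, which the authors made by trimming adapters with cutadapt and aligning with Bowtie, and the labels name the rat build Rnor 6.0. Whether molecular identifiers were merged before counting is not stated in the sources used here, and reads that are not independent molecules would make counting intervals too narrow.

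The 3 TBI+ and 3 TBI− rats of UCLA were compared in a fit of all 29 rats in 9 site and outcome groups, which share 1 estimate of the spread by the quasi-likelihood F test of edgeR 4.0.16 (with limma 3.58.1 in R 4.3.3) after TMM scaling, with p-values adjusted over 754 miRNAs after Benjamini-Hochberg and a threshold of 0.05. The low-count filter (filterByExpr, 10 counts) removed none. Standard errors are the log2 fold change divided by the square root of F. Single values were tested with a two-sided exact permutation test, which with 3 against 3 cannot go below 0.1. The TBI+ effect at UCLA was set against those at UEF and Monash as interaction contrasts. Library totals were 1162307 to 5223469 counts. No 2 UCLA libraries of a group agreed within sampling noise. The method was tested on simulated counts with known differences between the UCLA groups. These counts held no effect of a set of libraries at UCLA, so the test cannot bear on the set of 9. RefSeq sequences (GRCr8) were joined by name with pandas 2.3.3. DESeq2 1.42.0, other scalings, filters, samples, the miR-451 to miR-23a-3p ratio as a covariate and a replicate block were alternatives. The members and lists were chosen with earlier results of these data known. Named miRNAs were those the study names, the 10 lowest p in each direction, their other arms, the 3 most abundant, the lowest p and the highest level in each list and the 3 lowest p between sites.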

Additional observations from a re-analysis of the deposited data

Results flagged for a closer look

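The difference of TBI+ and TBI− rats was not the same at all sites in the interaction test of edgeR. Between UCLA and UEF it differed for 20 of 754 miRNAs, led by miR-673-3p (−3.49 on the log2 scale), miR-708-3p (−3.67) and miR-337-3p (−3.19). Between UCLA and Monash it differed for 117, and the same 3 miRNAs had −5.95, −6.62 and −6.32. All 3 were lower in each of the 3 UCLA TBI+ rats than in each TBI− rat, and at Monash lower in each of the 3 TBI− rats than in both TBI+ rats. These low rats are all in the set of 9 libraries, which holds no UEF rat. An effect of later epilepsy that differs by site cannot be told apart from the set.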

How the results depend on the processing

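Of the 50 miRNAs called at UCLA, 12 were called in every planned fit other than the one with at least 10 counts in each rat, all of them lower in TBI+ rats. The count was 76 with the 6 injured rats alone, 78 with the 9 UCLA rats, 17 with total counts only, 14 with scaling to miR-28-3p and 23 to 42 without 1 rat (23 without TBI− rat 3, 23 without TBI+ rat 1 and 29 without TBI+ rat 2). DESeq2 called 72, fits with other scalings or filters 41 to 60, and a fit without the 8 Monash rats, added after seeing the data, 60. With terms for site and outcome, and with a further term for the set of 9 libraries, both added after seeing the data, edgeR called 0 (17 and 27 with an unadjusted p under 0.05). Of the 80 named miRNAs, none that was called turned direction in any fit that keeps a UCLA contrast of its own, 9 lost the call with total counts only, 10 with scaling to miR-28-3p and 5 to 8 without 1 rat. For the difference from UEF, 20 calls became 37 with DESeq2 (27 lower, 10 higher), 8 with total counts only, 8 with scaling to miR-28-3p, 10 with at least 10 counts in each rat and 8 to 23 without 1 rat (8 without TBI+ rat 1, 13 without TBI− rat 3). For Monash, 117 became 75 to 113 without 1 rat (75 without TBI− rat 3). The log2 ratio of miR-451 to miR-23a-3p (−0.15) ranged from −0.45 to 0.21 without 1 rat, and its sign turned without TBI− rat 1 (0.21) and TBI+ rat 2 (0.08). The causes were not tested. With the number as a replicate block the counts were 39, 16 and 114. The deviations of same-numbered rats correlated at 0.01, 0.15 and −0.10, and those of rats with different numbers at −0.24 to 0.20. With 3 rats in each group these values cannot decide whether the numbers pair the rats. With libraries thinned to 1162307 counts, 41 miRNAs were called, 40 of them among the 50.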
